A study of Mus musculus with 14 samples.

Results

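Alveolar type 1 cells are the flat cells that line most of the surface of the air sacs. Expression of 9 genes typical of these cells (Hopx, Aqp5, Ager, Rtkn2, Clic3, Sec14l3, Emp2, Pdpn and Akap5) was followed in 14 mouse lung RNA-seq libraries. The genes were chosen by symbol, with earlier results of these data known, from the 54347 genes counted in each library. Shares of all genes set beside counts of members are therefore a description and not a test of the list. All 9 were found, each on a single row, and passed the filter on low counts in every comparison. All mice were C57BL/6, and all received Alternaria alternata extract, a fungal allergen, by the nose (2 mg in 40 µl for each of 4 daily doses), so no group was free of allergen. The labels give neither age nor sex and do not say whether replicates came from separate mice, so the p-values measure the spread between these libraries.

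The libraries belonged to 3 experiments with separate controls. In the marrow chimeras, wild-type recipients (WT, n = 2) and recipients carrying a gain-of-function human JAK1 kinase (JAK1 GOF, n = 2) were irradiated and given 1e+07 live wild-type bone marrow cells within 24 hours, so the GOF allele was carried by the cells the host retained, among them the lung epithelium. In the intrathecal experiment, resiniferatoxin (RTX, a TRPV1 agonist that ablates TRPV1-bearing sensory neurons) was injected at L5-L6 at 25 ng per mouse on 2 days (n = 3) and compared with 10 µl saline (n = 2), to remove spinal afferents. In the subcutaneous experiment, RTX was given at 30, 70 and 100 µg/kg over 3 days (n = 3) and compared with 100 µl saline (n = 2), to remove vagal as well as spinal afferents. The question for each was whether the type 1 cell genes differed between the treated or mutant lungs and their own controls.

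Type 1 cells form the thin barrier across which gas is exchanged and share a basement membrane with the capillaries beneath them. They are renewed from alveolar type 2 cells, the surfactant producers, which pass through a transitional state before they flatten. YAP and TAZ with TEAD factors, and NKX2-1, are known regulators of the type 1 programme. Of the 9 genes, Aqp5 encodes a water channel and Clic3 a chloride intracellular channel protein. Ager encodes the receptor RAGE, Pdpn the membrane glycoprotein podoplanin and Emp2 a membrane protein with tetraspan topology. Akap5 encodes a scaffold that anchors protein kinase A, Sec14l3 a lipid-transfer protein of the Sec14 family, and Hopx a small homeodomain protein that lacks DNA binding of its own.

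The 9 genes are protein-coding and lie on 9 different chromosomes. On GRCm38 the channel genes are Aqp5 (chr15:99590782-99594829, plus strand) and Clic3 (chr2:25456838-25458776, plus strand). The membrane protein genes are Ager (chr17:34597862-34600936, plus strand), Pdpn (chr4:143267431-143299564, minus strand) and Emp2 (chr16:10281749-10313968, minus strand). The remaining genes are Akap5 (chr12:76324891-76334153, plus strand), Rtkn2 (chr10:67979570-68059740, plus strand), Sec14l3 (chr11:4064841-4077736, plus strand) and Hopx (chr5:77086988-77115121, minus strand). Values are counts over all exons of a gene, from 1012 bases in Clic3 to 8644 bases in Emp2.

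The upstream sequences of 3 of the genes are shown because they bracket the response described below: Hopx and Clic3 had the largest differences after subcutaneous RTX, and Pdpn the smallest. The 250 bases before the annotated start came from RefSeq on GRCm38.p6, in which 8 of the 9 genes matched (Rtkn2 was the exception) with 9 windows, since Hopx had starts at 2 places. Sequences run 5′ to 3′ on the gene's strand, and capitals mark the only match to the motifs searched.

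Hopx, chr5:77115124-77115373, minus strand: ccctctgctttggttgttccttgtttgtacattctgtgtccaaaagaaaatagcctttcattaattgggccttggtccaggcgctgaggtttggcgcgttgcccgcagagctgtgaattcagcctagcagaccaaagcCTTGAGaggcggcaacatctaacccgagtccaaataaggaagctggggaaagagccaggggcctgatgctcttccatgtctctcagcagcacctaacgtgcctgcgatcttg
Clic3, chr2:25456593-25456842, plus strand: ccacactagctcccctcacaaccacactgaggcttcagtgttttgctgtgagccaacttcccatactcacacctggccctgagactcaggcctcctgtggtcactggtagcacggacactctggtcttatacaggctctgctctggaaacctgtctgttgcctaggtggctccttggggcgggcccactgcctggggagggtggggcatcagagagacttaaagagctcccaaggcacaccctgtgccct
Pdpn, chr4:143299565-143299814, minus strand: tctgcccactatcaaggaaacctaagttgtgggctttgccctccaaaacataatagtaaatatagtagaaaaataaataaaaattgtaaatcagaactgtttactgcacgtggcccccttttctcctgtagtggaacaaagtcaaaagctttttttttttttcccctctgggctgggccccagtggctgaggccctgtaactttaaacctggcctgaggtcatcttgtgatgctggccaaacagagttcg

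The capitals in the Hopx window are CTTGAG, the reverse complement of the NKX2-1 core CTCAAG. Searched on both strands, CTCAAG was in 1 of the 9 windows and in 13.3% of the 32851 upstream windows of all genes. The TEAD core GGAATG, also searched on both strands, was in 0 of the 9 windows and in 12.6% of all windows. The motifs do not overlap each other in these windows, and a match or its lack describes these letters only. The Pdpn window held 43.2% G+C, the lowest of the 9 windows, against 58.8% in Clic3, 52.4% in the Hopx window shown and a median of 52.4% over all windows. The highest G+C was 78.4%, before the RefSeq start of Aqp5 (chr15:99590778-99591027). This window lay almost wholly within the gene span given above, and the second Hopx window lay within the Hopx span, since starts differ between annotations.

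The 14 libraries held 18198872 to 24393000 counts in all and 23427 to 24391 genes with at least 1 count. Levels are given as CPM, estimated counts per 1e+06 of a library's total. The members' counts ran from 1383 (Clic3) to 56563 (Ager) in a library, and replicates differed across genes by a chi-square per degree of freedom of 9.57 to 23.1, well above counting error. Sftpc, the surfactant protein C gene that defines lung tissue, was at 5453 to 10323 CPM throughout. Mouse Jak1 was at 256 and 281 CPM in the WT recipients and 204 and 191 CPM in the GOF recipients. Whether reads of the human allele were counted there was not tested. Traces of 2 transcripts split the libraries across experiments: Rps3a2 was at 3.8 to 6.37 CPM in WT recipient 1, both intrathecal vehicle libraries and subcutaneous RTX 2 and 3, and at most 0.454 CPM elsewhere. Hmga2 was at 5.37 to 12.0 CPM in WT recipient 2, both GOF libraries, all 3 intrathecal RTX libraries and subcutaneous vehicle 1. In the intrathecal experiment this split coincided with the treatment, so the 2 cannot be told apart there. In the subcutaneous experiment Rps3a2 marked only RTX libraries and Hmga2 only a vehicle library. Split and treatment therefore coincided in part there, and only vehicle 2 and RTX 1 shared a state, with neither trace. Of the chimeras only WT recipient 1 carried Rps3a2. In a bulk tissue, fewer type 1 cells and less RNA per type 1 cell cannot be told apart either.

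Per kilobase of exon, Ager was the most abundant of the 9 genes in every library. Its level ranged from 600 to 1180 CPM per kb with a median of 887. Sec14l3 (median 403 CPM per kb) and Hopx (375) followed, and their order held in 8 of 14 libraries, so these neighbours do not differ beyond their spread. Pdpn (147) exceeded Emp2 (126) in 10 of 14 libraries, and Aqp5 (97.8) exceeded Clic3 (96.5) in 10 of 14. Akap5 (48.6) and Rtkn2 (41.4) were the least abundant, in this order in all 14. The levels moved over a similar span in 8 of the genes: the highest library held 1.89 times (Rtkn2) to 2.6 times (Akap5) the CPM of the lowest. Pdpn was the steadiest, with a ratio of 1.28 and a coefficient of variation of 7%, against 18.9 to 29.0% for the other 8. The lowest library was one of subcutaneous RTX for all 9 genes, and the highest was a chimera library for all 9, as levels set across tables that were made separately.

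**Figure D1:**
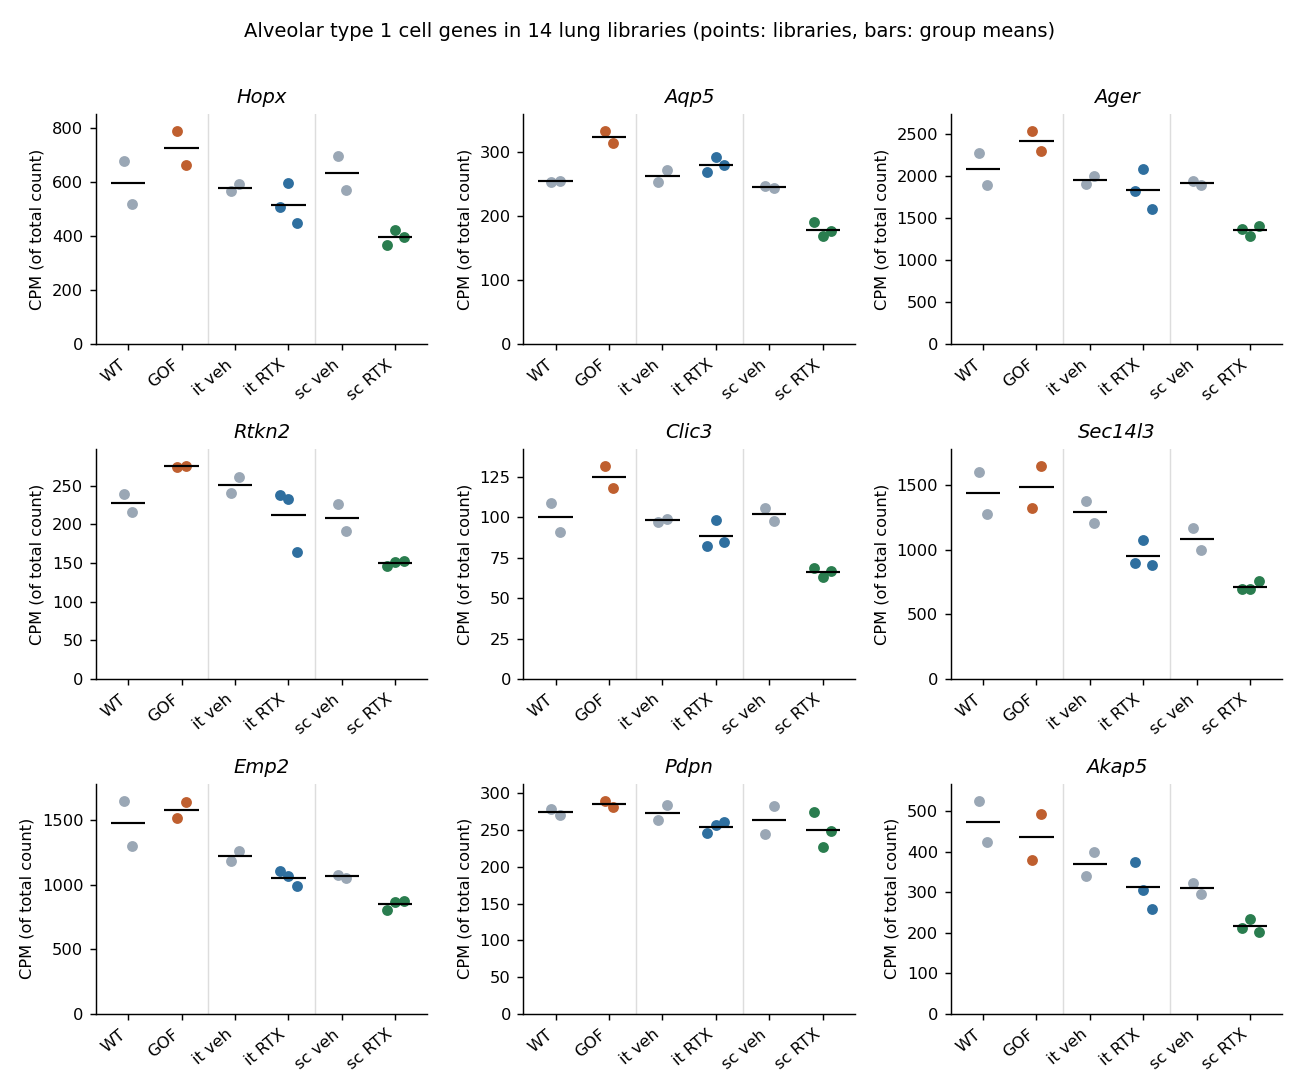
CPM of each of the 9 genes (vertical axis, from 0) in each library (points) with group means (bars), where it is intrathecal, sc subcutaneous and veh vehicle; grey lines separate the 3 experiments. In the subcutaneous experiment the RTX points lie below both vehicle points for 8 genes, and the Pdpn points overlap.

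Subcutaneous RTX lungs had lower levels of 8 of the 9 genes than their saline controls, with no overlap between the groups. The exception was Pdpn. Groups that did not overlap in this direction were found for 17.8% of all 17363 genes tested. The levels of the 8 genes were 0.618 times (Hopx) to 0.79 times (Emp2) those of the vehicle group.

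Of the channel proteins, Clic3 was at 106 and 98.0 CPM in the vehicle libraries and at 68.6, 63.4 and 66.7 CPM after RTX. The RTX libraries lay close together and well below both controls. This gave a log2 fold change of -0.64 ± 0.07 (SE; 95% interval -0.80 to -0.47); its p ranked the third of all genes tested (adjusted p = 0.0947 with edgeR's quasi-likelihood test and Benjamini-Hochberg adjustment). Aqp5, the water channel, was at 247 and 244 CPM with vehicle and at 190, 169 and 177 CPM with RTX. Both groups were tight and did not overlap. Its log2 fold change was -0.47 ± 0.07 (edgeR adjusted p = 0.0971).

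Among the membrane proteins, the receptor gene Ager was at 1943 and 1896 CPM with vehicle and at 1368, 1285 and 1408 CPM with RTX. No RTX library came within reach of a control. The log2 fold change was -0.52 ± 0.09 (edgeR adjusted p = 0.0992). Emp2 was at 1077 and 1053 CPM with vehicle and at 807, 866 and 876 CPM with RTX, a smaller step with no overlap (log2 fold change -0.34 ± 0.08, edgeR adjusted p = 0.131). Podoplanin is made by lymphatic endothelium, mesothelium and some fibroblasts as well as by type 1 cells, and their part in the Pdpn level was not tested. Pdpn was at 244 and 283 CPM with vehicle and at 274, 227 and 249 CPM with RTX. These groups overlapped, and the log2 fold change of -0.09 ± 0.10 had a 95% interval of -0.33 to 0.14 (edgeR adjusted p = 0.661).

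Of the genes for the other intracellular proteins, Hopx differed most. It was at 696 and 571 CPM with vehicle and at 369, 422 and 396 CPM with RTX. The controls differed from each other more than the RTX libraries did, and the groups stayed apart. The log2 fold change was -0.69 ± 0.10 (95% interval -0.94 to -0.45, edgeR adjusted p = 0.0947). Sec14l3, which ciliated cells also express, was at 1165 and 995 CPM with vehicle and at 696, 693 and 759 CPM with RTX, again without overlap (log2 fold change -0.61 ± 0.10, edgeR adjusted p = 0.0973). The kinase scaffold Akap5 was at 323 and 296 CPM with vehicle and at 212, 234 and 203 CPM with RTX. These groups were separated by more than either one's range (log2 fold change -0.53 ± 0.09, edgeR adjusted p = 0.0973). Rtkn2 was at 226 and 191 CPM with vehicle and at 146, 151 and 153 CPM with RTX, where the 3 RTX libraries nearly coincided (log2 fold change -0.49 ± 0.08, edgeR adjusted p = 0.1003).

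No member passed an adjusted p of 0.05 in edgeR, and 0 of the 17363 genes tested (0%) passed. At an unadjusted edgeR p under 0.05, 8 of 9 members were lower, against 9.19% of all genes tested that were lower at this level, and 3153 genes in all. DESeq2 called the same 8 members lower, with adjusted p from 1.13e-08 (Ager) to 0.000735 (Emp2), and called 2.73% of the genes it tested lower, while limma voom called 0 genes. The log2 fold change was below 0 for all 9 members and for 50.8% of all genes. Without subcutaneous vehicle 2, edgeR called 7 members lower (all but Emp2 and Pdpn), with 1 library left in that arm that was assumed to vary like the others, and called 2.48% of all genes lower. Without subcutaneous vehicle 1 it called 0 members. Vehicle 2 and RTX 1 were the only subcutaneous libraries of opposite treatment that had neither trace transcript. Between them all 9 members were lower in the RTX library, by log2 ratios of CPM of -0.63 (Hopx) to -0.05 (Pdpn) with a median of -0.47. This sets 1 library against 1, and the share of all genes lower in that pair was not computed.

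**Figure D2:**
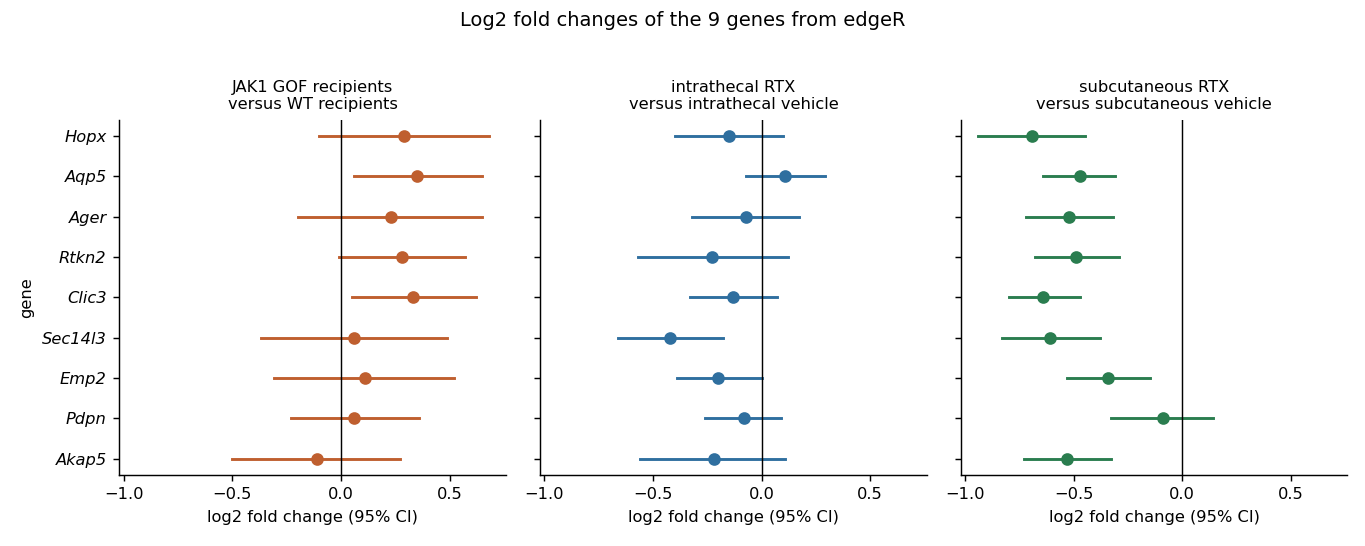
Log2 fold change of each gene from edgeR (horizontal axis; points) with its 95% confidence interval (lines) in the chimera, intrathecal and subcutaneous comparisons; the vertical line is no change. After subcutaneous RTX 8 intervals lie wholly below 0, from Hopx at -0.69 to Emp2 at -0.34, and the Pdpn interval spans 0.

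A further 20 genes that type 1 cells express, also chosen with earlier results of these data known, were read alongside. The part of other cells in their levels, such as blood endothelium or heart muscle, was not tested. All 20 had log2 fold changes below 0 after subcutaneous RTX, 17 without overlap, 15 at an unadjusted edgeR p under 0.05 and 0 at an adjusted p of 0.05. Their median was -0.36, beside -0.52 for the 9 members and 0 for all genes tested. The 2 with the smallest p were Gramd2, a type 1 marker (log2 fold change -0.42 ± 0.07, edgeR adjusted p = 0.0992), and Cryab, a small heat shock protein gene (log2 fold change -0.50 ± 0.09, edgeR adjusted p = 0.1). Gramd2 was at 164 to 178 CPM with vehicle and 125 to 133 CPM with RTX. Cryab was at 154 to 173 CPM with vehicle and 108 to 126 CPM with RTX, so neither gene's groups overlapped.

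The regulators of the type 1 fate were nearer to 0. Of 14 genes, 0 passed the test, 10 had log2 fold changes below 0, and the median was -0.06. Tead1, a DNA-binding partner of YAP and TAZ, had a log2 fold change of -0.19 ± 0.07 (edgeR adjusted p = 0.214), with 124 to 131 CPM in the vehicle libraries and 111 to 117 CPM after RTX. Nkx2-1, the lung lineage factor, had -0.15 ± 0.09 (edgeR adjusted p = 0.4). Among 11 genes of the transitional alveolar state 0 passed and the median was -0.02. Lgals3, which encodes galectin 3 and is abundant in macrophages as well, was at 271 to 273 CPM with vehicle and 341 to 356 CPM with RTX (log2 fold change 0.35 ± 0.07, edgeR adjusted p = 0.114). The keratin gene Krt19 had a log2 fold change of -0.34 ± 0.09 (edgeR adjusted p = 0.147).

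Other lung cell types were read in the same comparison. The 12 type 2 cell genes had a median log2 difference of -0.02 and 0 passed. Sftpc (log2 fold change -0.50 ± 0.17, edgeR adjusted p = 0.189) and Sftpb (-0.36 ± 0.14, adjusted p = 0.229), both surfactant protein genes, had the smallest p. The 9 pan-epithelial genes had a median of -0.18, with the smallest p for the tight junction genes Cldn7 (-0.27 ± 0.09) and Cldn3 (-0.23 ± 0.09). Of the airway epithelium, the medians were -0.93 for 7 club cell genes and -0.70 for 10 ciliated cell genes, both below that of the members, and -0.22 for 7 goblet cell genes, nearer to 0, with 0 passing in each list. The genes with the smallest p were Cldn10 (-0.93 ± 0.15, edgeR adjusted p = 0.0973) and Scgb1a1 (-1.07 ± 0.18) for club cells, Tppp3 (-0.88 ± 0.11, edgeR adjusted p = 0.0947) and Cfap126 (-0.78 ± 0.18) for ciliated cells, and Clca1 (-0.51 ± 0.18) and Tff2 (-0.51 ± 0.21) for goblet cells. The summed club cell level was 8546 to 13938 CPM with vehicle and 5069 to 5756 CPM with RTX, and the ciliated sum was 411 to 628 CPM with vehicle and 313 to 338 CPM with RTX. For 10 genes of blood endothelium, the cells that lie against type 1 cells, the median was -0.24 and the sums were 2257 to 2428 CPM and 1888 to 2270 CPM. Cldn5 (-0.41 ± 0.08) and Gpihbp1 (-0.61 ± 0.12) had the smallest p in it. Heart muscle genes, which in mice also mark the muscle sleeve of the pulmonary veins, had a median of -0.81 and sums of 125 to 464 CPM and 149 to 194 CPM, with the smallest p for Actc1 (-0.89 ± 0.27) and Sln (-1.30 ± 0.83). The 10 leukocyte genes had a median of 0.41, and their sums were 3230 to 4762 CPM and 2689 to 3480 CPM, so the median and the sum differed in sign. Siglecf (0.78 ± 0.17) had the smallest p of these. None of the genes in these lists was at 0 in any library, and their part in the lower type 1 levels was not tested.

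**Figure D3:**
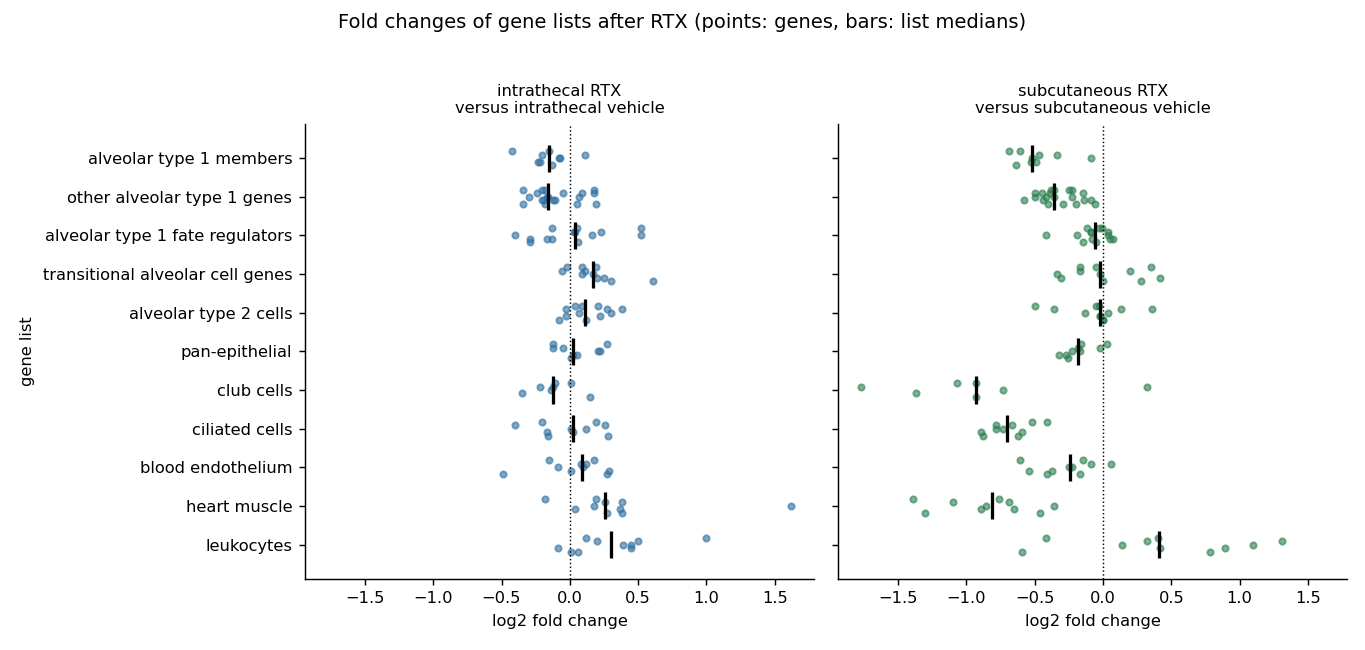
Log2 fold change of single genes (points) in 11 gene lists (rows), with list medians (bars), after intrathecal RTX (left) and subcutaneous RTX (right). On the right the 9 members and the 20 other type 1 genes lie below 0, with medians of -0.52 and -0.36, and the type 2 genes lie around 0.

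Set against the type 2 genes of the same library, the type 1 members were lower after subcutaneous RTX. This balance, the mean log2 CPM of the 9 members less that of the 12 type 2 genes, was -0.86 and -0.77 with vehicle and -1.14, -1.39 and -1.24 with RTX. Scaling between libraries does not enter it, and the groups did not overlap. The difference was -0.44 (pooled SD 0.11), larger than the spread between libraries. An exact permutation test of 2 against 3 libraries cannot reach 0.05, so none was run. Against the pan-epithelial genes the difference was -0.31 (pooled SD 0.07). With the 20 other type 1 genes in place of the members, the difference from the type 2 genes was -0.27.

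**Figure D4:**
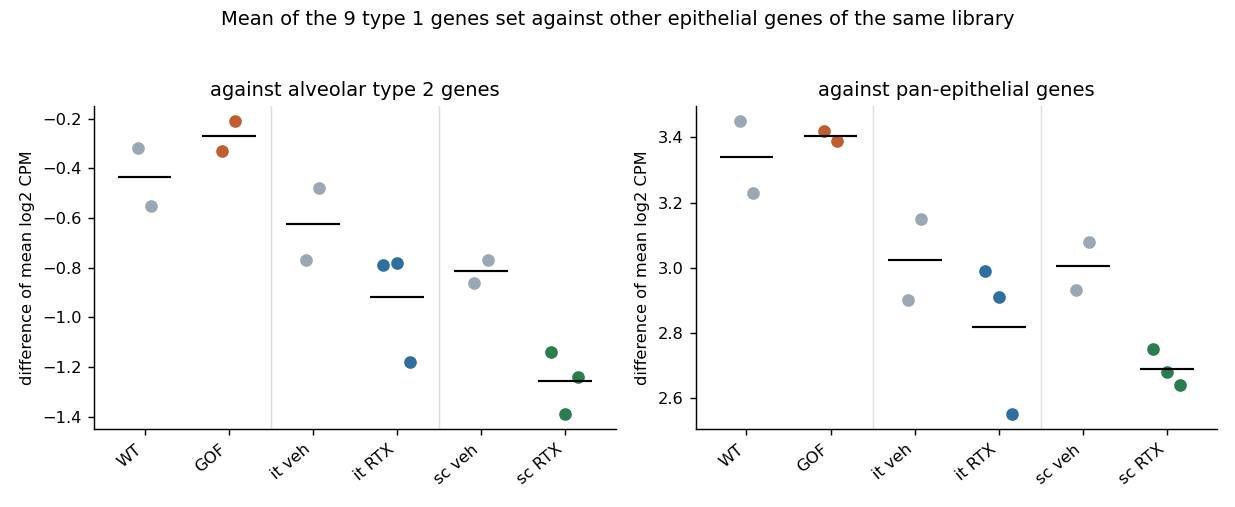
Mean log2 CPM of the 9 type 1 genes less the mean of the type 2 genes (left) or of the pan-epithelial genes (right) in each library (points), with group means (bars); the vertical axes do not start at 0. After subcutaneous RTX the balance against type 2 genes is -1.39 to -1.14, below both vehicle libraries at -0.86 and -0.77.

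After intrathecal RTX the members were closer to their controls, and Sec14l3 differed most. Sec14l3 was at 1374 and 1211 CPM with vehicle and at 901, 1079 and 886 CPM with RTX. Every RTX library was below both controls. The log2 fold change was -0.42 ± 0.11 (95% interval -0.66 to -0.18), with an adjusted p of 0.177 in edgeR and 0.0121 in DESeq2. Emp2 was at 1185 and 1263 CPM with vehicle and at 1109, 1065 and 992 CPM with RTX. These groups were apart by a small margin (log2 fold change -0.20 ± 0.09, edgeR adjusted p = 0.429).

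Rtkn2 was at 241 and 261 CPM with intrathecal vehicle and at 238, 233 and 165 CPM with RTX, where 1 of the 3 libraries accounted for most of the distance (log2 fold change -0.23 ± 0.15, edgeR adjusted p = 0.608). Pdpn was at 263 and 284 CPM with vehicle and at 246, 257 and 261 CPM with RTX, so the groups were narrowly apart. Akap5 was at 340 and 400 CPM with vehicle and at 374, 306 and 260 CPM with RTX, and these groups overlapped. For the other genes the RTX libraries lay on both sides of a control. Hopx was at 567 and 593 CPM with vehicle and at 507, 596 and 449 CPM with RTX. Ager was at 1901 and 2001 CPM with vehicle and at 1824, 2080 and 1606 CPM with RTX. Clic3 was at 97.4 and 99.1 CPM with vehicle and at 82.3, 98.4 and 85.0 CPM with RTX. In these 3 genes intrathecal RTX 2 was the highest RTX library and intrathecal RTX 3 or 1 the lowest. Aqp5 was the only member with a log2 fold change above 0 (0.11 ± 0.08, edgeR adjusted p = 0.648), at 253 and 272 CPM with vehicle and at 269, 292 and 280 CPM with RTX.

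In edgeR 0 members passed, where 0.311% of 17360 genes did, and 2 members (Sec14l3 and Emp2) were lower at an unadjusted p under 0.05, where 5.63% of all genes were. DESeq2 called 1 member, Sec14l3, where it called 0.899% of its genes lower, and limma voom called 0 members, where it called 0.213% of all genes. In 4 of the 9 genes (Rtkn2, Sec14l3, Emp2 and Pdpn) the groups did not overlap, where 16.8% of all genes did not overlap in this direction. With CPM after TMM scaling the groups of 2 of these, Sec14l3 and Emp2, were apart in this direction, and those of 15.3% of all genes. Members with a log2 fold change below 0 numbered 8 of 9, beside 48.5% of all genes. The median over the members was -0.15, beside -0.16 for the 20 other type 1 genes, of which 14 were below 0 and 11 did not overlap. Of those, Col4a4, a basement membrane collagen chain, was at 187 to 195 CPM with vehicle and 140 to 165 CPM with RTX (log2 fold change -0.34 ± 0.09, edgeR adjusted p = 0.185). Scnn1g, a subunit of the epithelial sodium channel, was at 162 to 168 CPM and 132 to 141 CPM (-0.24 ± 0.07, adjusted p = 0.256). Among the regulators Tead1 was at 153 to 166 CPM with vehicle and 112 to 130 CPM with RTX (-0.40 ± 0.09, adjusted p = 0.121), Lats2 had -0.29 ± 0.09, and the list's median was 0.04. The type 2 list had a median of 0.11, with the smallest p for Etv5 (0.30 ± 0.09) and Fabp5 (0.38 ± 0.11). The balance of type 1 over type 2 genes was -0.77 and -0.48 with vehicle and -0.79, -0.78 and -1.18 with RTX, a difference of -0.29 (pooled SD 0.22) that ranged from -0.44 to -0.14 when 1 library was left out. The groups were barely apart, and vehicle 2 and RTX 3 were the libraries farthest from the rest.

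Whether the 2 routes differed was tested directly, as the subcutaneous RTX effect less the intrathecal one in a fit of the 10 RTX and vehicle libraries. The comparison shares its libraries with those above. The routes also differed in dose and in days of injection. Rps3a2 marked vehicle libraries in the intrathecal experiment and RTX libraries in the subcutaneous one. An effect of route cannot be told apart from these differences. Aqp5 had the smallest p of the members, at -0.58 ± 0.10 on the log2 scale (95% interval -0.80 to -0.35, edgeR adjusted p = 0.0786). Its intrathecal RTX libraries all lay above the lower of their controls, and its subcutaneous RTX libraries all lay below both of theirs. Clic3 followed at -0.50 ± 0.12 (edgeR adjusted p = 0.128), Hopx at -0.54 ± 0.17 (adjusted p = 0.202) and Ager at -0.44 ± 0.14 (adjusted p = 0.212). Sec14l3 differed by -0.18 ± 0.15 between routes (95% interval -0.51 to 0.14), Emp2 by -0.14 ± 0.11 (-0.38 to 0.11), Rtkn2 by -0.25 ± 0.20 (-0.68 to 0.18) and Akap5 by -0.30 ± 0.19 (-0.72 to 0.13). For Pdpn the estimate was 0 ± 0.13 (-0.29 to 0.29). No member passed an adjusted p of 0.05 in edgeR, where 0.0556% of 17972 genes passed, and 4 members were lower at an unadjusted p under 0.05, where 7.68% of all genes were. DESeq2 called 2 members, Aqp5 (adjusted p = 0.000138) and Clic3 (adjusted p = 0.0219), where it called 0.896% of its genes lower, and limma voom called 0 members, where it called 0.0612% of all genes. The estimate was below 0 for 50.7% of all genes. With the trace transcripts as a term in a fit of all 14 libraries, Aqp5 had -0.44 (edgeR adjusted p = 0.602) and Clic3 -0.62 (adjusted p = 0.535).

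A shared RTX effect over both routes was fitted with the experiment as a term. This fit had no term for a difference between routes, so such a difference added to its spread. The shared effect was below 0 for all 9 genes, with a median of -0.36, and for 50.5% of all genes. Sec14l3 had the largest shared effect, -0.52 ± 0.08, and its p ranked the third of all genes (edgeR adjusted p = 0.0847). By p, Emp2 came next at -0.27 ± 0.06 (edgeR adjusted p = 0.12), then Clic3 at -0.39 ± 0.09 (adjusted p = 0.145). This order depended on the fit. With all 14 libraries in 1 fit, where the effects of the routes were averaged, the edgeR adjusted p was 0.0638 for Clic3, 0.0697 for Sec14l3 and 0.131 for Emp2. Aqp5 (-0.19 ± 0.10) and Pdpn (-0.09 ± 0.07) were the members nearest to 0. In edgeR 0 members and 0 of 17972 genes (0%) passed. At an unadjusted p under 0.05, 7 members were lower, where 7.66% of all genes were and 2401 genes differed in all. DESeq2 called 6 members lower, with the smallest adjusted p for Sec14l3 (1.68e-06), and called 1.7% of its genes lower, while limma voom called 0 genes.

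In the chimeras the members tended to be higher in GOF than in WT recipients, and none passed the test. Aqp5 measured 253 and 255 CPM in WT and 333 and 314 CPM in GOF chimeras. Each GOF library was above each WT library. The log2 fold change was 0.35 ± 0.14 (95% interval 0.06 to 0.65, edgeR adjusted p = 0.329). Clic3 measured 109 and 91.1 CPM in WT and 132 and 118 CPM in GOF chimeras (log2 fold change 0.33 ± 0.13, edgeR adjusted p = 0.334). Rtkn2 measured 240 and 216 CPM in WT and 275 and 276 CPM in GOF chimeras (log2 fold change 0.28 ± 0.13, edgeR adjusted p = 0.444). Neither gene's groups overlapped.

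Ager measured 2267 and 1890 CPM in WT and 2534 and 2295 CPM in GOF chimeras, separated by less than the distance between the WT libraries (log2 fold change 0.23 ± 0.19, edgeR adjusted p = 0.713). Pdpn measured 279 and 270 CPM in WT and 290 and 281 CPM in GOF chimeras. Its groups were narrowly apart. Hopx measured 678 and 521 CPM in WT and 791 and 666 CPM in GOF chimeras, which overlapped. Sec14l3 measured 1599 and 1275 CPM in WT and 1325 and 1650 CPM in GOF chimeras. Emp2 measured 1652 and 1302 CPM in WT and 1516 and 1638 CPM in GOF chimeras. In both genes a WT library lay close to the highest GOF library and the log2 fold changes were 0.06 ± 0.20 and 0.11 ± 0.19. Akap5 was the only member with a log2 fold change below 0 (-0.11 ± 0.18, edgeR adjusted p = 0.86), with 526 and 423 CPM in WT and 380 and 492 CPM in GOF chimeras.

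In edgeR 0 of the 9 members passed, where 0.717% of 17298 genes did, and 2 (Aqp5 and Clic3) were higher at an unadjusted p under 0.05, where 4.63% of all genes were. Groups that did not overlap, GOF above WT, were found for 5 members and for 19.6% of all genes. DESeq2 and limma voom called 0 members, where they called 1.76% and 0.26% of the genes they tested. For 8 of 9 members, and for 50.1% of all genes, the log2 fold change was above 0. The median over the members was 0.23, beside 0.06 for the 20 other type 1 genes, of which 0 passed. Cryab was at 154 to 168 CPM in WT recipients and 197 to 228 CPM in GOF recipients (0.41 ± 0.13 on the log2 scale, edgeR adjusted p = 0.219), and Igfbp2, an insulin-like growth factor binding protein gene of mature type 1 cells, was at 207 to 229 CPM and 249 to 272 CPM (0.27 ± 0.14, adjusted p = 0.489). WT recipient 1 carried Rps3a2 and the other 3 chimera libraries carried Hmga2. Against WT recipient 2 alone, which shared that trace, 8 members were higher in GOF 1 (median log2 ratio 0.35) and 9 in GOF 2 (median 0.33). WT recipient 2 was the lower WT library for every member but Aqp5, so it gave larger ratios for those members than WT recipient 1 would. The share of all genes higher in these pairs was not computed. Heart muscle genes moved in the same comparison, with a median of 1.11, 5 of 10 higher at an adjusted p of 0.05 and sums of 269 to 388 CPM in WT and 591 to 603 CPM in GOF recipients. The 4 with the smallest p were Tnnt2 (1.10 ± 0.14, edgeR adjusted p = 0.0114), Pln (1.34 ± 0.18), Myl7 (1.36 ± 0.18) and Sln (1.51 ± 0.22). The club cell list had a median of 0.54 with 1 of 7 genes passing, Bpifa1 (1.56 ± 0.14, edgeR adjusted p = 0.00258), and the ciliated list a median of 0.36 with 0 passing and the smallest p for Foxj1 (0.52 ± 0.13) and Dynlrb2 (0.63 ± 0.16). The 10 leukocyte genes had a median of -0.62, with 2 lower at an adjusted p of 0.05, Ptprc (-0.84 ± 0.15) and Cd3e (-0.98 ± 0.19), and sums of 4921 to 4983 CPM in WT and 5225 to 5811 CPM in GOF recipients, so the median and the sum differed in sign. The part of these lists in the type 1 values, those of Cryab included, was not tested. The balance of type 1 over type 2 genes was -0.32 and -0.55 in WT and -0.33 and -0.21 in GOF recipients, which overlapped.

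The members varied together, with Pdpn apart from the rest. Over the 14 libraries, with each experiment's mean subtracted, Pearson's r between pairs of members ranged from 0.12 to 0.96 with a median of 0.76, as a description of libraries that share treatments, depth and processing. Ager and Clic3 were the most alike (r = 0.96), followed by Hopx and Ager (r = 0.95). The correlation of each gene with the mean of the other 8 was 0.95 for Ager, 0.93 for Hopx and Clic3, 0.90 for Rtkn2 and Emp2, 0.83 for Sec14l3, 0.72 for Aqp5, 0.69 for Akap5 and 0.35 for Pdpn. Aqp5 and Akap5 were little alike (r = 0.35), although each followed other members: Aqp5 followed Clic3 (r = 0.88) and Akap5 followed Emp2 (r = 0.84).

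**Figure D5:**
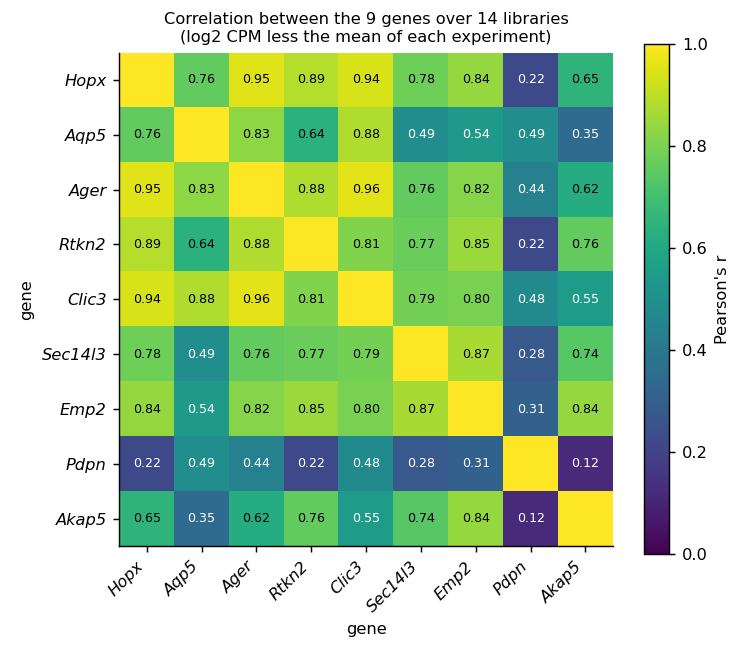
Pearson's r of log2 CPM between each pair of the 9 genes over 14 libraries, after the mean of each experiment was subtracted (colour and printed value, both axes the genes). The Pdpn row is the darkest, at 0.12 to 0.49, and the pair of Ager and Clic3 reaches 0.96.

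Other lists were set against each member in the same way. With the mean of the 20 other type 1 genes, r was 0.62 to 0.95 for the 8 members other than Pdpn, highest for Emp2 (0.95) and Sec14l3 (0.90), and 0.28 for Pdpn. With the type 2 list, r was -0.53 (Pdpn) to 0.12 (Aqp5). With the club cell list it reached 0.91 for Clic3 and 0.88 for Hopx, and was 0.82 for Ager, 0.79 for Aqp5 and 0.43 for Akap5. For Clic3, Hopx, Ager and Aqp5 this was above r with the other type 1 genes (0.80, 0.81, 0.81 and 0.62). For Rtkn2, Sec14l3, Emp2, Pdpn and Akap5 it was below. With the ciliated list Sec14l3 had 0.68, within the range of the others (0.02 for Pdpn to 0.77 for Clic3). With the blood endothelial list it was 0.49 (Sec14l3) to 0.83 (Hopx and Rtkn2) for the members other than Pdpn, and -0.01 for Pdpn. With the lymphatic endothelial list it was 0.16 (Rtkn2) to 0.46 (Emp2) for the members other than Pdpn, and -0.26 for Pdpn. With the heart muscle list r was -0.33 to 0.47. The genes most like the mean of the members among 13331 genes searched were Cyp4b1, a cytochrome P450 gene (r = 0.971), Nectin3, an adhesion molecule gene (0.969), Pmp22, of the same family as Emp2 (0.963), Cldn18, a tight junction gene of the alveolus (0.96), and Epb41l4a (0.956). Cldn18 is among the 20 other type 1 genes. It was at 632 to 718 CPM with subcutaneous vehicle and 520 to 528 CPM with RTX (log2 fold change -0.38 ± 0.08, edgeR adjusted p = 0.124).

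For single members the nearest genes were Tmem204 (r = 0.982), Tmem109 and Sbds for Hopx, Cd151 (0.965), Pifo and Icam2 for Aqp5, Nectin3 (0.964), Amhr2 and Stx7 for Ager, and Dipk2a (0.95), Svip and Plce1 for Rtkn2. Those of Clic3 were Epb41l4a (0.967), Amhr2 and Laptm4a, those of Sec14l3 Cldn18 (0.954), Plagl1 and Glb1l2, and those of Emp2 Fgf1 (0.971), Ndst1 and Phactr1. Akap5 was nearest to Tax1bp1 (0.964), Nebl and Flvcr2. The profile of Pdpn had no close match: Ube2z (0.826), Rabggta and Erg28 were its nearest genes, all below the best match of every other member.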

How the data were processed

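Mouse lung RNA was sequenced in 14 libraries after oligo-dT enrichment and preparation of NEBNext Ultra II libraries, per the labels' protocols. The deposited tables, 1 per experiment, hold estimated counts per gene, as Salmon gives (24.2% of the values were not whole). The submitters' processing notes name FastQC 0.11.8, Trim Galore 0.6.6, STAR 2.7.5b, Salmon 1.2.1 and the build GRCm38. No source used here gives the annotation release or the strand setting, so reads of overlapping or antisense genes cannot be told apart. Positions and exon lengths came from GENCODE M21, which holds 54094 of the 54347 gene identifiers, 53307 of them with the version number of the tables.

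CPM was computed from each library's total. Each experiment was fitted alone on rounded counts by edgeR 4.0.16 under R 4.3.3: TMM factors, a filterByExpr cutoff of 10 counts and 15 in total, and the robust quasi-likelihood F test, with Benjamini-Hochberg adjustment over all genes and a threshold of 0.05. The difference between routes was a contrast of group means in a fit of 10 libraries. The RTX effect over both routes came from a separate fit of these libraries, with the experiment as a term and a single RTX term. Correlations and the balance used log2 CPM after TMM scaling over all 14 libraries, with a prior count of 1. The counts were rounded and not filtered. Same-numbered replicates did not deviate together, so the replicate number was not used as a block.

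The 9 members and the 17 gene lists, members included, were chosen with earlier results of these data known. All members are named. From each other list the rule names genes past the threshold (at most 4), or else the 2 with the smallest p. Among lists without a passing gene, this was done for those the report describes, and 1 gene is not reported here. The genes most like a member (3) or the mean (5) were taken by Pearson's r over genes whose log2 CPM averaged 1 or more; Cldn18 and Tead1, among the lists, are given with values, as are Sftpc and mouse Jak1. Goblet, fibroblast, mesothelial, lymphatic, natural killer and neuronal lists were computed and are given in the closing section. Alternatives were DESeq2 1.42.0, limma 3.58.1 voom, scaling by DESeq2 size factors or by totals, no filter or 1 CPM in at least 2 libraries, a prior that is not robust, 1 fit of all 14 libraries with and without the trace transcripts as a term, the replicate block, a threshold of 0.1, and each library left out in turn. CPM after TMM scaling, for groups that do not overlap, was added after seeing the data. Figures were drawn with matplotlib 3.10.9.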

Additional observations from a re-analysis of the deposited data

How the results depend on the processing

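Of 801 fold changes of members under the alternatives, 740 kept their direction and their side of the threshold, 50 kept their direction and passed it, and 11 changed sign, all of them small. A value of 0.00 was counted as having no direction, as for the difference of Pdpn between routes (0 in the edgeR fit), which was 0.02 with the replicate block, 0.01 with the trace transcripts as a term and -0.11 to 0.11 when a library was left out. In the chimeras Akap5 was 0.04 without WT recipient 1 and 0.06 without GOF recipient 1, Sec14l3 was -0.08 without WT recipient 2 and -0.11 without GOF recipient 2, and Emp2 was -0.04 without WT recipient 2. After intrathecal RTX, Ager was 0.01 without intrathecal RTX 3, 0.01 with the replicate block and 0.05 with the trace transcripts as a term, which also gave Hopx 0.02 and Emp2 0.03. After subcutaneous RTX, Pdpn was 0.02 without vehicle 2. Over the libraries left out, the ranges of these values were -0.31 to 0.06 (Akap5), -0.11 to 0.22 (Sec14l3) and -0.04 to 0.27 (Emp2) in the chimeras, -0.17 to 0.01 (Ager, intrathecal) and -0.20 to 0.02 (Pdpn, subcutaneous). The cause was not tested.

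Members called, 0 throughout by the edgeR fit, numbered as follows, with the share of all genes called lower in brackets. After subcutaneous RTX there were 8 with no low-count filter (1.54%), 8 with DESeq2 (2.73%) and 3 with all 14 libraries (0.267%). There were 2 with the trace term (0.577%) and 6 at an adjusted p of 0.1 (0.23%). The fits without a vehicle library are given above. After intrathecal RTX there was 1 with no filter (1.12%) and 1 with DESeq2 (0.899%). The difference between routes had 2 with no filter (0.236%), 2 with DESeq2 (0.896%) and 1 at 0.1 (0.117%). It had 1 when subcutaneous RTX 1 was left out (0.185%). The shared effect over both routes had 1 with no filter (0.155%), 6 with DESeq2 (1.7%) and 1 at 0.1 (0.0668%). The balance after subcutaneous RTX was -0.27 with the 20 other type 1 genes. The replicate block called 0 members in the 5 comparisons. Correlations of deviations from the group mean between same-numbered libraries were -0.32 to -0.02, so these libraries did not deviate together. With groups of 2 or 3 libraries, these values cannot exclude a pairing.

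Over all genes, the chimera count of 124 became 807 with no filter, 305 with DESeq2, 45 with voom, 79 without the robust prior, 50 with all 14 libraries, 286 at 0.1 and 83 to 919 when a library was left out (919 without WT 1, 303 without WT 2). The intrathecal count of 54 became 655, 254, 34 without the robust prior, 7 with all 14 libraries, 5 with the trace term, 123 at 0.1 and 19 to 40 when a library was left out (19 without RTX 2, 32 without vehicle 1, 33 without RTX 3). The subcutaneous count of 0 became 807, 761, 71 with all 14, 184 with the trace term, 62 at 0.1 and 0 to 871 when a library was left out (871 without vehicle 2). The difference between routes went from 10 to 147, 312, 0 with all 14, 6 with the trace term, 47 at 0.1 and 0 to 90 (90 without subcutaneous RTX 1, 59 without subcutaneous vehicle 2, 23 without subcutaneous RTX 3). The effect over both routes went from 0 to 62, 390, 2 with all 14, 9 with the trace term, 16 at 0.1 and 0 to 2. Each control group held 2 libraries, and the calls of subcutaneous members by edgeR changed with the low-count filter, with the libraries in the fit and with vehicle 2.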

Other observations

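Lists not described above gave the following medians of log2 fold change, with genes passing an adjusted p of 0.05 in edgeR. After subcutaneous RTX the 6 lymphatic endothelial and 6 mesothelial genes, cell types that also make podoplanin, had medians of -0.18 and -0.08, the 8 fibroblast genes -0.09, the 7 goblet cell genes -0.22, the 6 natural killer genes -0.14 and the 5 neuronal genes tested -0.40, and 0 passed in each of these lists. After intrathecal RTX the medians in that order were 0.14, -0.21, -0.29, -0.04, 0.05 and 0.41, and 1 gene passed, the fibroblast proteoglycan gene Lum (-1.41 ± 0.17, edgeR adjusted p = 0.0117). In GOF against WT recipients they were 0.01, 0.16, 0.07, -0.73, -0.56 and 0.17, and 0 passed.

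Between experiments, which had separate tables and controls and are not compared by a test here, Emp2 was at 1302 and 1652 CPM in the WT chimeras, at 1185 and 1263 CPM with intrathecal vehicle and at 1053 and 1077 CPM with subcutaneous vehicle. Akap5 was at 423 and 526, 340 and 400, and 296 and 323 CPM in the same order. Pdpn was at 270 and 279, 263 and 284, and 244 and 283 CPM.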
